A study of Mus musculus with 384 samples.

Results

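Cytosolic ribosomal protein genes were followed in single granulocyte-macrophage progenitors (GMPs), the bone marrow precursors of neutrophils and monocytes. Members were the gene rows whose symbol is Rpl or Rps followed by a number and at most one of the letters a, x or l, together with Rplp0, Rplp1, Rplp2 and Rpsa, and without pseudogenes named -ps. The rule found 82 members among 46078 gene rows. Of these, 76 were core members (46 of the large and 30 of the small subunit), and 6 were second copies that the pattern also takes in: Rpl3l, Rpl10l, Rpl39l, Rpl6l, Rps27l and Rps4l. The annotation calls Rpl6l a processed pseudogene and Rps4l a transcribed processed pseudogene. Genes of the family that the pattern does not take in include Rps3a1, Rack1, Fau, Rpl22l1, Rpl7l1 and Rpl36al.

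The study asked how GMPs change when the leukaemia oncogene BCR/ABL is switched on. The BCR-ABL group came from C57Bl/6 mice carrying Scl-tTA and TRE-BCR/ABL, in which the Scl promoter drives the transactivator in stem and progenitor cells and doxycycline holds the oncogene silent. The Control group came from C57Bl/6 mice whose transgenes the labels do not give. The protocol, recorded alike for both groups, has mice bred on 20 mg/L doxycycline in drinking water and induced at 5 weeks of age by taking it away, and does not describe the treatment of Control mice separately. Marrow of both groups was taken 5 to 6 weeks after induction, and single lineage-negative, c-Kit+, Sca-1-, CD34+, FcγR+ cells were sorted into plates for SMART-seq2. There were 3 BCR-ABL sets (numbered 1, 2 and 4) and 1 Control set of 96 wells each. The labels do not say whether sets were separate animals, so p-values measure the spread between sets only, and set and condition cannot be told apart for Control.

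Ribosomal proteins are the protein part of the ribosome, and each is made in step with the others so that subunits can be assembled. Their mRNAs begin with a run of pyrimidines, the TOP motif, through which mTOR signalling controls their translation as a group. Blood progenitors are sensitive to their loss: mutations of RPS19 and other members cause Diamond-Blackfan anaemia in people, and loss of a copy of RPS14 is part of the 5q- syndrome.

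After wells with under 50000 gene reads or under 1000 genes were left out, 76, 61 and 92 cells remained in the BCR-ABL sets and 94 in Control. Summed gene reads were 126157027, 121378632 and 140995697 in the BCR-ABL sets and 139684338 in Control. The gate genes Kit, Cd34 and Fcgr3 were present in every set, and Cd34 stood at 146, 180.5 and 158 reads per 1000000 gene reads (CPM) in BCR-ABL sets, against 440.1 CPM in Control. Summed CPM of 3 T cell markers was at most 0.135 in any set, and summed CPM of 6 erythroid markers at most 13.7. In 3 eosinophil markers BCR-ABL set 4 had 1222 summed CPM, against 0.412 and 0.297 in sets 1 and 2 and 1.02 in Control. In 6 macrophage markers set 4 had 102 summed CPM, against 30.5 and 53.4 in sets 1 and 2 and 28.8 in Control. How many cells carried these sums was not examined. Basophil and mast cell markers summed to 292, 454 and 252 CPM in BCR-ABL sets, against 355 CPM in Control, and 5 B cell markers to 68.8, 68.97 and 57.03 CPM in BCR-ABL sets, against 95.4 CPM in Control. Xist, the RNA of the inactive X chromosome, was at 5 CPM or more in 75 of 76, 0 of 61 and 3 of 92 cells of the BCR-ABL sets, and in 94 of 94 Control cells. The Control set therefore matches BCR-ABL set 1 in Xist and not sets 2 and 4.

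Near-identical copies limit how reads can be given to a member, and Rpl3 is shown here as the member on which the results turn. Across the 82 members, the median share of a transcript's 50-base words that also occur in transcripts of another gene was 43.5%, and 32 members were over 50%. Rpl3 lies at chr15:80077791-80091868 on the minus strand of mm10, and 85.6% of its words occur elsewhere. Its processed copy Rpl3-ps1 lies at chrX:13202571-13203780, and 1208 of its 1210 aligned bases are those of the Rpl3 transcript, with a longest identical stretch of 728 bases. The copies differ by the substitutions C57A and T786C, counted from the A of the Rpl3 start codon with the Rpl3 base first. The windows of 60 coding bases around each are shown because, within the aligned part, only reads that cover one of these bases differ between the copies; the differing base is in capitals. Outside it lie 79 bases at the start and 62 bases at the end of the Rpl3 transcript.
Rpl3, coding bases 27 to 86: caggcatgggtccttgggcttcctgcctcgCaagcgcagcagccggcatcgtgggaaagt
Rpl3-ps1, the same bases: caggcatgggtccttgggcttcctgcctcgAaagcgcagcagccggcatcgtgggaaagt
Rpl3, coding bases 756 to 815: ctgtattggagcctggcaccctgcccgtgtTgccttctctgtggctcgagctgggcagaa
Rpl3-ps1, the same bases: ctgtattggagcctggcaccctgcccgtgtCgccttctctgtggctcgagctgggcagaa

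Short sequences recurred at the start sites of members. RefSeq's table for GRCm38.p6 held the promoters of 60 of the 82 members. The pentamer CTTTC, a core of many TOP starts, occurred on the sense strand within 30 bases of the annotated start, on either side, in 22 of 60 members (36.7%), against 9.18% of all 27025 genes in the table. On either strand it occurred in 27 of 60 members, against 16.9% of all genes. The heptamer CCGGAAG, a core of ETS-family sites, was sought on either strand of the 300-base promoter (250 bases before the start and 50 after it). It occurred in 25 of 60 members (41.7%), against 9.93% of all genes. CTTTC and CCGGAAG overlap by at most 1 base, and a match is a description of letters and not of a bound site. The next windows, of 30 bases before the annotated start and 30 from it, show 4 members with CTTTC (in capitals). Then come 2 highly expressed members without it in the window, and how exact the annotated starts are was not tested.
Rpl4, chr9:64173357-64173416, plus strand: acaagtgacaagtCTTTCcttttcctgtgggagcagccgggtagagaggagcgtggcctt
Rpl15, chr14:18270957-18271016, minus strand: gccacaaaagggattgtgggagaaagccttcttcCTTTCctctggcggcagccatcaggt
Rps27, chr3:90213619-90213678, minus strand: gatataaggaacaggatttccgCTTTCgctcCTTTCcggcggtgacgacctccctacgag
Rpl13a, chr7:45128716-45128775, minus strand: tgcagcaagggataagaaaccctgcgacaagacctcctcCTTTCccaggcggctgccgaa
Rplp0, chr5:115559437-115559496, plus strand: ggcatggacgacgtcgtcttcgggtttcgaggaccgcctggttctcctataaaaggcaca
Rps3, chr7:99483680-99483739, minus strand: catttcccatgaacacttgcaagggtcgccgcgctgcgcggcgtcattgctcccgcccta

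Members differed widely in level. On the scale of CPM per kb of the principal transcript, averaged over the 4 sets, the large-subunit proteins Rpl4 and Rpl8 were among the highest at 2164 and 1970 CPM per kb (the exact order of neighbours depends on the transcript chosen for length). Rplp0, the base of the ribosomal stalk, stood at 1386 CPM per kb, and Rps3, a small-subunit protein at the mRNA entry, at 1285. The lowest core members were Rpl17 at 6.18 and Rpl24 at 3.80 CPM per kb. Rps3 shares 2.96% of its 50-base words with another gene and Rpl24 shares 81.7%. Over the 76 core members, the rank correlation of level per length with the shared portion was -0.25, a description that rests on 1 annotation.

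**Figure D1:**
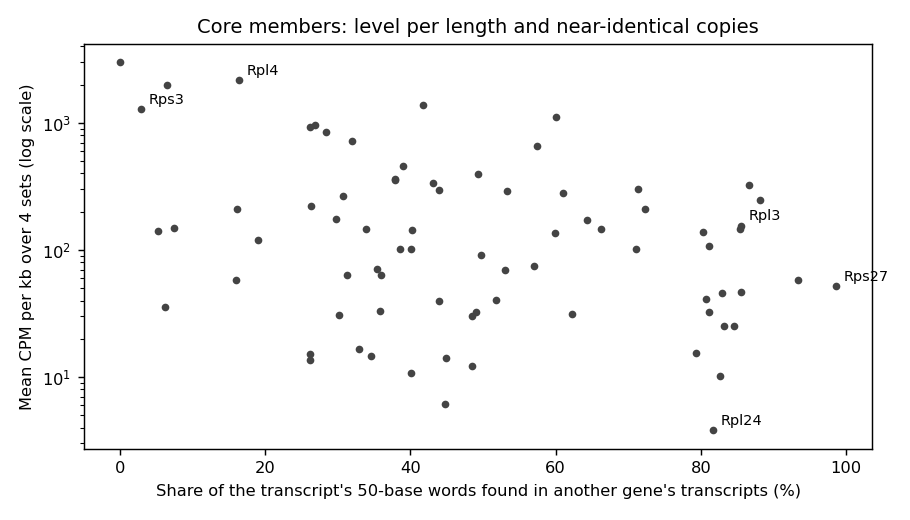
Each point is 1 of the 76 core members. The horizontal axis is the share of its transcript's 50-base words found in transcripts of another gene (%), and the vertical axis its mean CPM per kb over the 4 sets on a log scale; Rps3 and Rpl4 combine few shared words with high levels, and Rpl24, with 81.7% shared, is the lowest.

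Ribosomal protein genes together held 2.43%, 2.29% and 2.53% of summed gene reads in BCR-ABL sets 1, 2 and 4, against 2.28% in Control. Sets 1 and 4 were above Control, and set 2 was close to it: set 2 was below Control by medians over cells (2.28% against 2.35%), in cells thinned to equal depth (2.32% against 2.35%) and in wells with at least 500000 gene reads (2.2813% against 2.2818%). The BCR-ABL mean was 2.42% ± 0.121 (SD, n = 3), a difference of 0.136 percentage points from Control. An exact two-sided permutation test over sets gave p = 0.5, where the smallest p that 3 sets against 1 allow is 0.25. Small-subunit members held 1.04%, 0.995% and 1.08% of gene reads in BCR-ABL sets, against 0.984% in Control, and large-subunit members 1.39%, 1.29% and 1.45%, against 1.30%.

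Single cells spread further in the BCR-ABL sets than in Control. The share per cell had medians of 2.47%, 2.28% and 2.58% in BCR-ABL sets, against 2.35% in Control. Its highest values were 6.38%, 4.21% and 5.76% in BCR-ABL sets, against 2.91% in Control. Cells over 3% numbered 13 of 76, 5 of 61 and 18 of 92 in BCR-ABL sets, against 0 of 94 in Control. The SD over cells was 0.675, 0.446 and 0.655 percentage points in BCR-ABL sets, against 0.269 in Control. Depth moved with these high shares: in the 11, 7 and 11 BCR-ABL cells under 674952 gene reads the median share was 3.65%, 3.05% and 3.46%, against 2.45% in the 4 such Control cells. In deeper cells the highest share was 3.92%, 3.41% and 4.203% in BCR-ABL sets, against 2.91% in Control. The part of depth in the wider spread was not tested.

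Within every set the share ran against depth. Its Spearman correlation with gene reads over cells was -0.57, -0.37 and -0.61 in the BCR-ABL sets (n = 76, 61 and 92) and -0.43 in Control (n = 94); the share is computed from the same reads. The share correlated with the share of mitochondrially encoded genes at 0.57, 0.31 and 0.44 in the BCR-ABL sets and 0.32 in Control. It correlated with the score of monocyte-primed marker genes at -0.44, -0.31 and -0.31 in the BCR-ABL sets and -0.20 in Control. The score of neutrophil-primed marker genes showed little relation to the share, at 0.016, -0.024 and 0.14 in the BCR-ABL sets and -0.06 in Control. With the score of G2/M genes the values were -0.40, -0.44 and -0.37 in the BCR-ABL sets and -0.16 in Control. The share of reads on ribosomal protein pseudogene rows followed that of the members at 0.85, 0.89 and 0.93 in the BCR-ABL sets and 0.87 in Control. Members' reads per spike-in read had medians of 5.66, 5.66 and 5.77 in BCR-ABL sets, against 4.73 in Control. All gene reads per spike-in read had medians of 234, 251 and 217 in BCR-ABL sets, against 201 in Control.

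Gene by gene, Rpl3 stood apart and the other core members differed little in estimate between BCR-ABL and Control cells. Counts were summed per set and compared across all genes with edgeR's quasi-likelihood F test (3 sets against 1). Of 20324 genes tested, 0 passed an adjusted p of 0.05 (0% called), and so did 0 of the 81 members that passed the filter on low counts. At an unadjusted p under 0.05, 2 members (Rpl3 and Rpl3l) were on the higher side, where 3.79% of all genes were, and 0 on the lower side, where 3.39% were (7.18% on either side). DESeq2, with other assumptions on the spread, called 2 members (Rpl3 and Rpl39l), where it called 3.27% of all genes it tested. The median log2 fold change of the tested members was 0.03 and that of all genes 0.05. All 75 core members other than Rpl3 had estimates between -0.39 and 0.23.

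All 3 BCR-ABL sets were above Control for 18 of the 81 tested members and below it for 14. Among all tested genes, 23.2% had every BCR-ABL set above Control and 27.8% below, so the members' split is near or under the background. The median was 0.03 for small-subunit and 0.03 for large-subunit core members. Without Rpl3, the SD of the core members' log2 ratios was 0.142, 0.158 and 0.226 for BCR-ABL sets 1, 2 and 4 over Control. Between BCR-ABL sets it was 0.135, 0.191 and 0.248. The scatter of the members against Control thus lay in the same range as that among BCR-ABL sets.

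**Figure D2:**
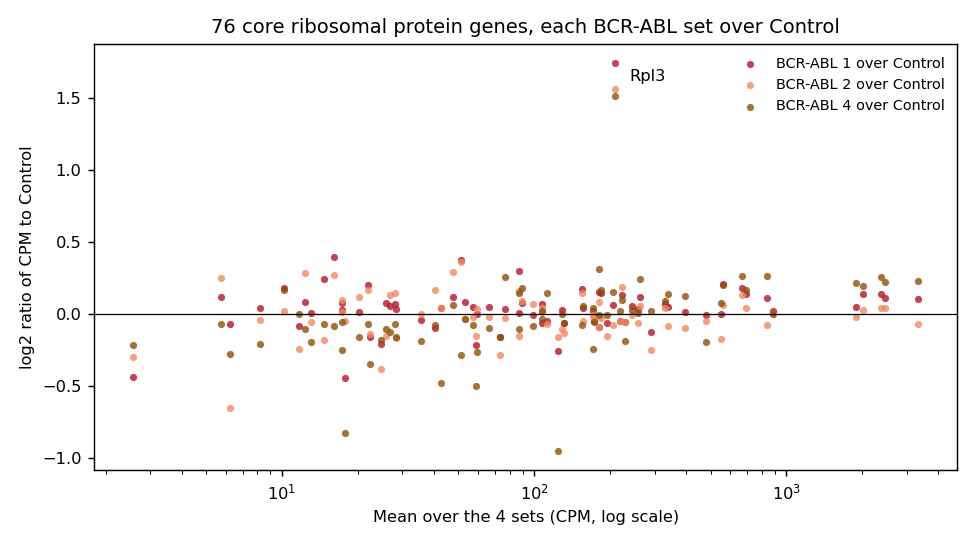
Each of the 76 core members has 3 points, the log2 ratio of CPM in BCR-ABL set 1, 2 or 4 to CPM in Control (vertical axis), plotted at its mean CPM over the 4 sets (horizontal axis, log scale). The 3 points of Rpl3 lie at 1.74, 1.56 and 1.52, above those of all other core members.

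Rpl3, which shapes the peptidyl transferase centre of the large subunit, had 276, 243 and 236 CPM in BCR-ABL sets, against 82.3 CPM in Control. All 3 BCR-ABL sets were above Control, as for 23.2% of all tested genes, and the BCR-ABL sets lay close together. The log2 fold change was 1.63 (SE 0.19; edgeR unadjusted p = 5.63e-04, adjusted p = 0.594). DESeq2 on the same sums gave an adjusted p of 9.89e-13, so the call depends on the tool. With 1 Control library, the spread in the edgeR test comes from the BCR-ABL sets, drawn towards a trend over all tested genes.

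The difference in Rpl3 was visible cell by cell. Rpl3 had per-cell medians of 264, 221 and 225 CPM in BCR-ABL sets, against 67.8 CPM in Control. Cells ranged from 99.1 to 627, from 36.9 to 593 and from 11.99 to 555 CPM in the BCR-ABL sets, and from 0.212 to 462 CPM in Control. Under 100 CPM were 1 of 76, 1 of 61 and 1 of 92 cells of the BCR-ABL sets, against 68 of 94 in Control (72.3%). Under 10 CPM were 0, 0 and 0 cells of the BCR-ABL sets, against 12 in Control. The coefficient of variation over cells was 0.354, 0.378 and 0.334 in BCR-ABL sets, against 0.942 in Control. Control cells thus overlapped the BCR-ABL range at the top and extended far below it. Thinned to 674952 reads a cell, the median was 185, 156 and 151 Rpl3 reads in BCR-ABL sets, against 45 in Control; the gap therefore stood at equal depth.

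The processed copy did not share the difference. Rpl3-ps1 had 388, 348 and 399.7 CPM in BCR-ABL sets, against 409 CPM in Control, which is more reads than Rpl3 had in each of the 4 sets. Rpl3-ps2 stood between 1.90 and 2.74 CPM. The Rpl3 row held 41.4%, 40.98% and 36.97% of the reads of Rpl3 and these 2 copies in BCR-ABL sets, against 16.7% in Control. Added together, the 3 rows gave 665, 593 and 638 CPM in BCR-ABL sets, against 493 CPM in Control. Fitted as 1 feature, an alternative chosen after seeing the data, they had a log2 fold change of 0.38 (SE 0.13; edgeR unadjusted p = 0.041, adjusted p = 0.678). The rank correlation of Rpl3 with Rpl3-ps1 over cells was 0.25, 0.26 and 0.48 in the BCR-ABL sets and -0.29 in Control. How the aligner divided reads between these rows was not tested.

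**Figure D3:**
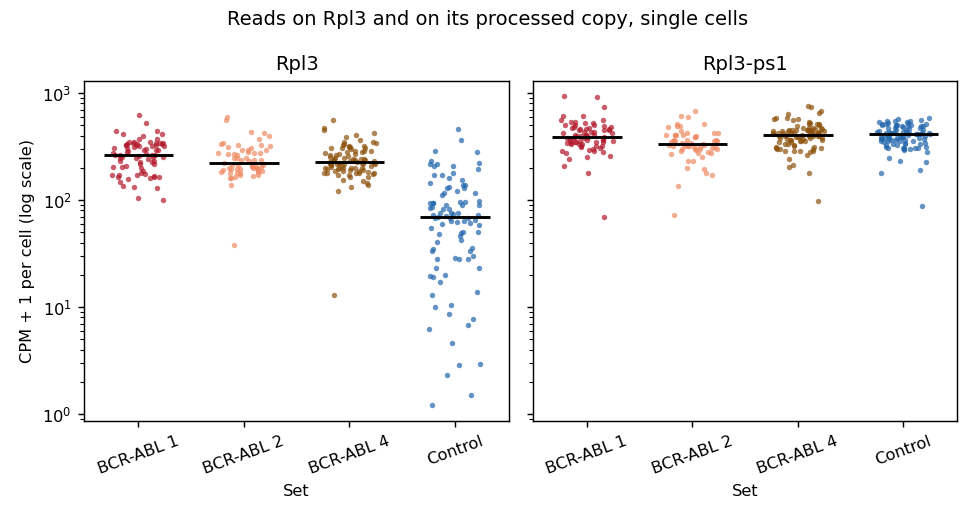
Points are single cells and black lines set medians, for Rpl3 (left) and its processed copy Rpl3-ps1 (right); the vertical axis is CPM + 1 on a log scale. Rpl3 medians are 264, 221 and 225 CPM in the BCR-ABL sets and 67.8 CPM in Control, where cells reach down to 0.212 CPM, and Rpl3-ps1 lies in 1 band in all 4 sets.

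Genes next to Rpl3 on chromosome 15 were read by position, 4 on each side. Apobec3, which encodes a cytidine deaminase that restricts retroviruses and lies at chr15:79891659-79915906, had 272, 247 and 359 CPM in BCR-ABL sets, against 96.7 CPM in Control. Its log2 fold change was 1.61 (SE 0.26; edgeR unadjusted p = 0.00234, adjusted p = 0.594), about the size of that of Rpl3. Mief1, a mitochondrial fission factor, had 53.5, 65.8 and 57.1 CPM in BCR-ABL sets, against 39.5 CPM in Control (log2 fold change 0.59, edgeR unadjusted p = 0.0369, adjusted p = 0.669). Syngr1, which overlaps the start of Rpl3 on the opposite strand, had 7.29, 1.66 and 8.67 CPM in BCR-ABL sets, against 2.23 CPM in Control. The Polycomb gene Cbx7 had 3.50, 4.76 and 17.1 CPM in BCR-ABL sets, against 1.25 CPM in Control, with an SE of 1.20 on its log2 fold change of 2.75. Tab1 and Cbx6 had log2 fold changes of -0.38 and -0.24, and Pdgfb and Mgat3 did not pass the filter on low counts. Counting is not stated to use strand, so reads of Rpl3 and Syngr1 in the overlap cannot be told apart.

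Like Rpl3, the members named next, with all BCR-ABL sets on one side of Control, did not pass an adjusted p of 0.05 in edgeR. Rpl10, the large-subunit protein needed for subunit joining and linked to the X chromosome, had 128, 137 and 79.1 CPM in BCR-ABL sets, against 152.5 CPM in Control. Set 4 was far below the other sets, and the log2 fold change was -0.39 (SE 0.36). Rps27 had 16.1, 21.1 and 12.3 CPM in BCR-ABL sets, against 21.9 CPM in Control; 98.6% of its 50-base words occur in another gene. Rpl15, a core large-subunit protein, had 58.7, 61.2 and 48.1 CPM in BCR-ABL sets, against 67.9 CPM in Control. Rps21 had 96.0, 87.2 and 86.4 CPM in BCR-ABL sets, against 77.997 CPM in Control. Rps14, the 5q- syndrome gene, had 682, 659 and 725 CPM in BCR-ABL sets, against 602 CPM in Control, with a log2 fold change of 0.21 (SE 0.12). The unadjusted edgeR p-values of these members were 0.129 or more.

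Members with roles in disease or stress gave small estimates. Rpl5 and Rpl11 bind Mdm2 when ribosome assembly fails and so stabilise p53. Rpl5 had 24.5, 21.6 and 24.9 CPM in BCR-ABL sets, against 28.1 CPM in Control. Rpl11 had 28.2, 24.04 and 24.8 CPM in BCR-ABL sets, against 26.7 CPM in Control. Rps19, the gene most often mutated in Diamond-Blackfan anaemia, had 265, 253 and 289 CPM in BCR-ABL sets, against 244 CPM in Control. Rpl22, whose loss is known from T cell leukaemia, had 281, 258 and 311 CPM in BCR-ABL sets, against 306 CPM in Control. Rpsa, which also serves as a laminin receptor, had 74.8, 71.5 and 86.98 CPM in BCR-ABL sets, against 72.8 CPM in Control, and Rpl41, the smallest member, had 180.4, 178.5 and 150.0 CPM in BCR-ABL sets, against 177 CPM in Control. The estimates of these 6 members had unadjusted edgeR p-values of 0.309 or more.

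Of the 4 X-linked members, Rpl39 and Rps4x had Control inside the range of the BCR-ABL sets. Rpl39, which lines the exit tunnel, had 133, 122 and 131 CPM in BCR-ABL sets, against 131 CPM in Control. Rps4x, which escapes X inactivation in people, had 209, 189.8 and 223 CPM in BCR-ABL sets, against 200.3 CPM in Control. Levels of Rps4x did not sort the sets with Xist from those without it. For Rpl39, set 4 and Control were level at 131 CPM, so its order by Xist was not clear.

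Second copies were low, with Rps27l the exception. Rps27l, a p53 target, had 245, 265 and 184 CPM in BCR-ABL sets, against 249.9 CPM in Control. Rps4l had 25.2, 29.3 and 23.2 CPM in BCR-ABL sets, against 20.5 CPM in Control, and Rpl6l between 5.21 and 6.40 CPM in all sets. Rpl3l, the muscle copy of Rpl3, had 61, 24 and 138 reads in 8, 3 and 6 cells of the BCR-ABL sets, against 4 reads in 1 cell of Control. In each set its 2 highest cells held at least 65.6% of those reads. Rpl39l, the male germ cell copy of Rpl39, had 0, 1178 and 3 reads in BCR-ABL sets, against 0 in Control. Of the 1178 reads in set 2, 847 came from 1 cell and 326 from another, so its call by DESeq2 rests on 2 cells. Rpl10l, also of male germ cells, had 1, 0 and 1 reads in BCR-ABL sets, against 3 in Control, at or under the floor of 3 reads.

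Many members moved together from cell to cell. Each member's CPM was correlated with the summed CPM of the other members over the cells of a set, and the mean over sets had a median of 0.36 over core members, with 25 of 76 over 0.5. The highest were Rps14 (0.77), Rps26 (0.74) and Rps7 (0.74). Rps14 had 0.77, 0.80 and 0.86 in the BCR-ABL sets and 0.67 in Control. The lowest among members with at least 10 CPM in every set were Rpl15 (-0.08), Rpl28 (-0.06) and Rpl11 (-0.06). Rpl3 stood at 0.05, 0.26 and 0.28 in the BCR-ABL sets and 0.08 in Control. Rpl10 averaged -0.01. In sparse counts weak correlations are no finding, and these coefficients share the depth of each cell.

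Fate priming was read from Irf8, the monocyte regulator, and Gfi1, the neutrophil regulator, neither of which is a member. In cells thinned to 674952 reads, Gfi1-only cells had at least 10 reads of Gfi1 and under 10 of Irf8, and Irf8-only cells the reverse. There were 35, 17 and 63 Gfi1-only cells in the BCR-ABL sets and 10 in Control. Irf8-only cells numbered 13, 15 and 0 in the BCR-ABL sets and 50 in Control. Comparisons between the classes used BCR-ABL sets 1 and 2 and Control, since set 4 had no Irf8-only cell.

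Gfi1-only cells gave a larger share of their gene reads to members than Irf8-only cells of the same set. The share was 2.50% in Gfi1-only and 2.32% in Irf8-only cells of BCR-ABL set 1. It was 2.43% in Gfi1-only and 2.22% in Irf8-only cells of BCR-ABL set 2. In Control it was 2.42% in Gfi1-only and 2.19% in Irf8-only cells. The differences of 0.181, 0.209 and 0.222 percentage points averaged 0.204 ± 0.0211 (SD, n = 3 sets), positive in 3 of 3 sets. The exact two-sided sign-flip permutation test gave p = 0.25, the smallest that 3 sets allow. Single cells of the classes overlapped in every set. Gfi1-only cells were also shallower, with median gene reads of 1631310 in set 1, 1492310 in set 2 and 902874 in Control, against 1804760, 2595620 and 1340540 in Irf8-only cells, and depth ran against the share within sets; its part was not tested. Members' reads per spike-in read ran the other way, with medians of 5.42 in Gfi1-only and 7.66 in Irf8-only cells of BCR-ABL set 1, 3.95 and 8.01 in set 2, and 3.77 and 4.73 in Control.

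The order of the groups within a class depended on the class and on how cells were pooled. In Gfi1-only cells the share of summed reads was 2.50%, 2.43% and 2.55% in BCR-ABL sets, against 2.42% in Control. In Irf8-only cells it was 2.32% and 2.22% in BCR-ABL sets 1 and 2, against 2.19% in Control. In cells with at least 10 reads of both regulators (14, 19 and 14 cells in the BCR-ABL sets and 26 in Control) it was 2.18%, 2.22% and 2.42% in BCR-ABL sets, against 2.36% in Control, so sets 1 and 2 were below Control there. By medians over cells, BCR-ABL set 2 was also below Control in Gfi1-only cells (2.42% against 2.47%) and in Irf8-only cells (2.18% against 2.26%).

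**Figure D4:**
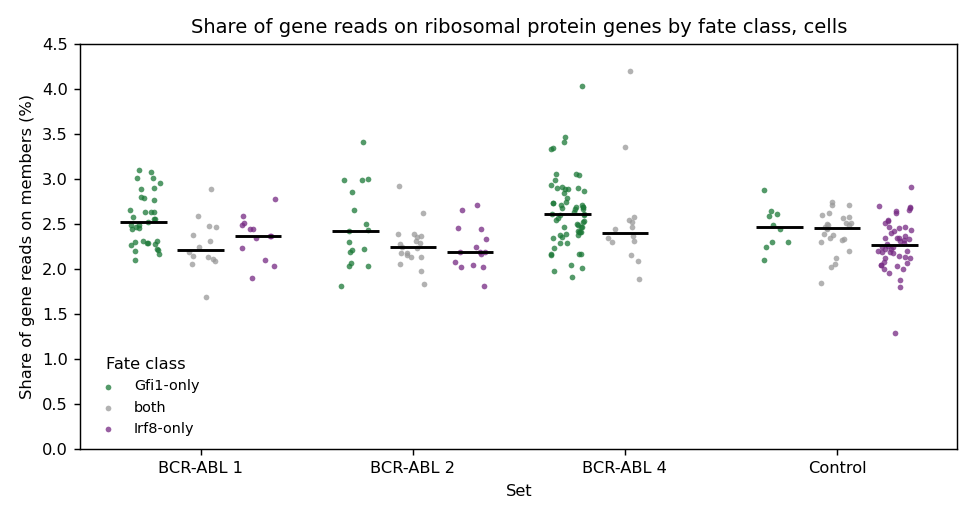
Points are single cells and black lines medians of the share of gene reads on members (vertical axis, %), for Gfi1-only, both and Irf8-only cells of each set. Cell medians of Gfi1-only cells are 2.53%, 2.42% and 2.61% in the BCR-ABL sets and 2.47% in Control, those of Irf8-only cells 2.37% and 2.18% in BCR-ABL sets 1 and 2 and 2.26% in Control, and BCR-ABL set 4 has no Irf8-only cell.

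Most members leaned towards Gfi1-only cells by small amounts. In edgeR with the set as a block, 0 of 14015 genes passed an adjusted p of 0.05 (0% called), and 0 of the 79 members tested. At an unadjusted p under 0.05, 8 members were on the Gfi1-only side, where 6.3% of all genes were, and 0 on the Irf8-only side, where 5.8% were (12.1% on either side). DESeq2 called 2 members (Rpl32 and Rpl9), where it called 7.31% of all genes it tested. The median log2 fold change was 0.13 over the tested members and -0.02 over all genes. In all 3 sets Gfi1-only cells were above Irf8-only cells for 36 of the 79 members, against 18.7% of all genes, and below for 3, against 19.5%.

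**Figure D5:**
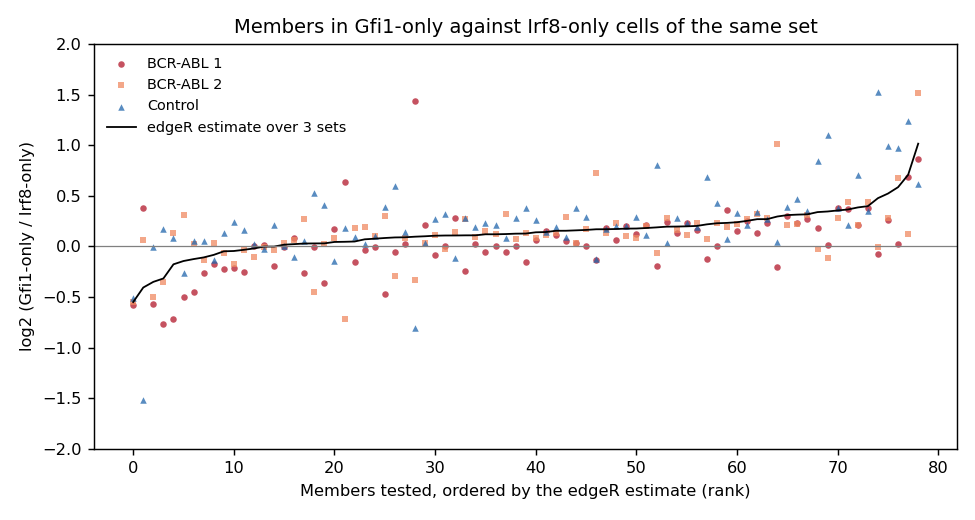
For each member tested, ordered by edgeR's estimate (black line), points give the log2 ratio of CPM + 0.5 in Gfi1-only to Irf8-only cells of BCR-ABL set 1, BCR-ABL set 2 and Control (vertical axis). The line runs from -0.55 to 1.01 and lies above 0 for 64 of the 79 members.

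Rpl32, a large-subunit protein, had 947 CPM in Gfi1-only and 729 CPM in Irf8-only cells of BCR-ABL set 1. It had 927 CPM in Gfi1-only and 682 CPM in Irf8-only cells of BCR-ABL set 2, and 958 CPM in Gfi1-only and 751 CPM in Irf8-only cells of Control. Gfi1-only cells were above Irf8-only cells in each of the 3 sets, as for 18.7% of all genes tested. Rpl32 was named because its edgeR p was the smallest among the members. Its log2 fold change was 0.40 (SE 0.08, edgeR unadjusted p = 0.00662, adjusted p = 0.271, DESeq2 adjusted p = 0.0175).

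Rpl9 had 56.98 CPM in Gfi1-only and 31.2 CPM in Irf8-only cells of BCR-ABL set 1. It had 73.9 CPM in Gfi1-only and 25.5 CPM in Irf8-only cells of BCR-ABL set 2, and 58.7 CPM in Gfi1-only and 38.1 CPM in Irf8-only cells of Control. Its log2 fold change was 1.01 (SE 0.27; edgeR unadjusted p = 0.0154, adjusted p = 0.323; DESeq2 adjusted p = 0.0254), and 93.3% of its 50-base words occur in another gene. Rps24, Rplp2 of the stalk, Rps14 and Rps20 had log2 fold changes of 0.36, 0.31, 0.27 and 0.25 with unadjusted edgeR p-values between 0.0296 and 0.0418. Rpl3 had a log2 fold change of -0.05 (SE 0.13) between the classes. Its per-cell medians in Gfi1-only cells were 247, 208 and 222 CPM in BCR-ABL sets, against 55.98 CPM in Control, and in Irf8-only cells 317 and 237 CPM in BCR-ABL sets 1 and 2, against 66.7 CPM in Control.

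Within Gfi1-only cells alone, BCR-ABL was set against Control, where only 10 Control cells entered. Of 17043 genes 0 passed an adjusted p of 0.05 in edgeR (0% called), and 0 of the 80 members tested. At an unadjusted p under 0.05, 3 members were on the higher side, where 11.2% of all genes were, and 4 on the lower side, where 5.02% were (16.2% on either side). DESeq2 called 3 members (Rpl3, Rpl10a and Rpl10), where it called 10.8% of all genes it tested. Rpl3 had 260.2, 242 and 231 CPM in BCR-ABL sets, against 87.7 CPM in Control, with a log2 fold change of 1.505 (SE 0.18; edgeR adjusted p = 0.182). Rpl10 had 117, 146 and 76.2 CPM in BCR-ABL sets, against 341 CPM in Control (log2 fold change -1.56, SE 0.37, edgeR adjusted p = 0.203). Rpl10a had 189, 171 and 184 CPM in BCR-ABL sets, against 305 CPM in Control (log2 fold change -0.72, SE 0.15, edgeR adjusted p = 0.188). Over all cells the same estimates for Rpl10 and Rpl10a were -0.39 and -0.04. Copies hold 85.4% of the 50-base words of Rpl10 and 88.1% of those of Rpl10a.

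Lists of related genes were read beside the members, and no gene of them passed an adjusted p of 0.05 in edgeR between BCR-ABL and Control. Of 20 other TOP transcripts of translation, 13 (65%) had positive and 7 negative estimates (median 0.11), where 54.2% of all tested genes had positive ones, and 1 was on each side at an unadjusted p under 0.05. Eef2, the translocase of elongation, had 1880, 1698 and 1942 CPM in BCR-ABL sets, against 1467 CPM in Control (log2 fold change 0.35). Vim, a filament protein with a TOP mRNA, had 471, 454 and 325 CPM in BCR-ABL sets, against 832 CPM in Control (log2 fold change -0.98). It was also lower in Gfi1-only than in Irf8-only cells (log2 fold change -1.61), and Control held more Irf8-only cells than each BCR-ABL set. Within Gfi1-only cells, the lowest estimate between BCR-ABL and Control among the 20 other TOP transcripts was -0.46. The part of fate in the Vim difference was not tested.

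Among 10 regulators of TOP translation and S6 kinase, Mlst8, a subunit of the mTOR complexes, had 25.9, 32.2 and 28.6 CPM in BCR-ABL sets, against 12.99 CPM in Control (log2 fold change 1.17, SE 0.25, edgeR adjusted p = 0.619; DESeq2 adjusted p = 0.00285). Of 18 tested chaperones and assembly factors 13 (72.2%) had positive estimates (median 0.13), with 0 at an unadjusted p under 0.05. The p53 arm of ribosome stress had 4 positive and 4 negative estimates among 8 genes, and Trp53 itself had 263, 278.5 and 256 CPM in BCR-ABL sets, against 313 CPM in Control. The 78 mitochondrial ribosomal protein genes had a median of -0.04 between BCR-ABL and Control, with 41.03% positive. Between Gfi1-only and Irf8-only cells their median was -0.19, with 17 positive and 60 negative estimates of 77 tested, against 0.13 and 64 positive of 79 for the cytosolic members; of all genes tested there 48.6% had positive estimates. Ribosomal protein pseudogene rows, many of which share reads with members, had medians of 0.13 between BCR-ABL and Control (189 tested) and 0.22 between Gfi1-only and Irf8-only cells (111 tested).

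Of the family genes that the pattern leaves out, Rack1, a scaffold on the small subunit, had 2208, 2062 and 2222 CPM in BCR-ABL sets, against 2014.9 CPM in Control. Rps3a1 had 388, 358 and 420.3 CPM in BCR-ABL sets, against 364 CPM in Control. Rpl22l1, the paralog of Rpl22, had 76.9, 81.7 and 59.8 CPM in BCR-ABL sets, against 64.9 CPM in Control. Control lay inside the range of the BCR-ABL sets for Rps3a1 and Rpl22l1 and below it for Rack1.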

How the data were processed

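The authors deposited counts of reads per gene and well, made from reads aligned to mm10 with GSNAP (2015-09-29) and counted with HTSeq (0.5.3p3), per the submitters' processing notes. Of all rows' reads, 44.9% were on genes, 40.9% not aligned, 7.67% on no feature, 6.24% ambiguous and 0.265% on spike-ins; the row for reads with several alignments held 0. Only gene rows entered library sizes. Gene symbols, coordinates and transcripts came from GENCODE vM21 (45143 of 46078 rows matched); length is that of the principal transcript, and promoters came from RefSeq. A cell had at least 50000 gene reads and 1000 genes, which kept 323 of 384 wells with 50434 reads or more (median 1483690). Counts were summed per set, or per set and fate class with at least 10 cells, and tested on all genes with edgeR 4.0.16 (R 4.3.3; TMM, filterByExpr, quasi-likelihood F test, Benjamini-Hochberg, 0.05); the lone Control is assumed to vary like the BCR-ABL sets. DESeq2 1.42.0 and limma 3.58.1 were alternatives. The code was tested on simulated data. No doublet caller was run on these sorted wells. Fate contrasts carry the set as a block because both classes come from the same set. Named members were the 8 largest one-sided estimates between conditions, the 6 smallest p-values between fates, the extremes of correlation and level, and a list by role, with up to 3 genes of each related list. Reads carry no molecular identifiers, so floors of 3 reads cover counting error only. Members and lists were chosen with earlier results of these data known. Some genes that these rules name are not reported here.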

Additional observations from a re-analysis of the deposited data

How the results depend on the processing

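The share between BCR-ABL and Control stayed positive under every denominator, depth, pooling and well filter tried, between 0.0969 and 0.167 percentage points, and between 0.0796 and 0.1998 without 1 BCR-ABL set each (lowest without set 4, highest without set 2); BCR-ABL set 1 alone, chosen after seeing the data, gave 0.152. The share between fates was 0.168 with a class limit of 5 reads (2 sets) and 0.265 with 4 granule genes left out of the denominator, and between 0.195 and 0.216 without 1 set each. DESeq2 called 2 members between conditions, 2 between fates and 3 within Gfi1-only cells, where edgeR called 0. All other alternatives run, limma-voom, leaving out each set and no replicate block among them, called 0 members, so the block changed no call. The fate estimate of Rpl3, -0.049 in full, ran from -0.14 with a class limit of 5 reads to 0.039 without BCR-ABL replicate 1. Its condition estimate was 0.38 as 1 feature with its copies, and the cause was not tested. With 1 Control set and 2 residual degrees of freedom, small differences were not detectable. A large estimate such as the 1.63 of Rpl3 between conditions did not pass in edgeR either. The lack of edgeR calls among members therefore does not show that they were unchanged.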

Other observations

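A window of 3 Mb on each side of Rpl3 was chosen after its values and those of Apobec3 were seen. It held 118 other tested genes, among them Apobec3 and Mief1, which also enter the count that follows. Of these, 16 (13.6%) had an unadjusted edgeR p under 0.05 between BCR-ABL and Control, 11 on the higher and 5 on the lower side, where 7.18% of all 20324 tested genes did. None passed an adjusted p of 0.05.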
